A study of Mus musculus with 8 samples.

Results

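The p53 target genes described here were 10 named genes, chosen by symbol, Mdm2, Ccng1, Gadd45a, Bax, Bbc3, Pmaip1, Sesn1, Btg2, Trp53inp1 and Phlda3, and Cdkn1a, the gene of p21, is not among them. The platform annotation gave 9 of the 10 a probe, 1 probe each, out of 23473 gene probes on the array. Bax had no probe under its symbol and was not analysed here. The 9 probes were measured in quiescent neural stem cells (qNSCs), which came from a line made from embryonic ventral telencephalon of ICR mice and were held in BMP4 medium without EGF for 3 days. BafA qNSCs then received 20 nM bafilomycin A, an inhibitor of the proton pump (V-ATPase) that acidifies lysosomes, for 4 h or 24 h, and control qNSCs received the same quiescence medium without it for 4 h or 24 h. All 4 groups therefore shared BMP-induced quiescence and fresh medium, all came from cell culture, and each had 2 arrays. No source says that the 2 arrays of a group came from separate cultures, so p-values rest on the spread between arrays, which may be technical. Most of that spread is taken from other probes of like signal rather than from the gene's own probe.

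The transcription factor p53 is kept low in unstressed cells, because Mdm2 binds it and marks it for the proteasome. DNA damage, ribosomal stress, oncogene activity or a shortage of nutrients can release p53 from Mdm2, and p53 then binds a response element made of a pair of 10-base decamers in or near its target genes. The targets fall into several kinds: genes that feed back on p53 itself, genes that favour cell death, and genes that slow the cell cycle or adjust growth to stress. In neural stem cells p53 is known as a brake on self-renewal.

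The response element can be looked for in the promoters of these genes. RefSeq promoter sequences of build GRCm38.p6, which run from 250 bases before a start to 50 after it, were found for 8 of the 10 genes, in 11 windows. A match was a pair of p53 decamers (3 purines, a C, 2 of A or T, a G and 3 pyrimidines each) on either strand, the pattern being its own reverse complement, with a spacer of 0 to 13 bases and at most 2 mismatches, none at the C or the G. Such a match occurred in 4 of the 11 windows, those of Ccng1, Gadd45a, Bax and a start of Sesn1, and in 4.09% of 32851 promoter windows of all genes. A match without a spacer, as in Ccng1, occurred in 0.326% of all windows. The 250 bases before the start are shown 5′ to 3′ for the 3 genes that have both a match and a probe, and for Mdm2, the feedback regulator. Of these 3, in BafA against control at 24 h, Ccng1 was among the highest and Gadd45a and Sesn1 were lower. The Mdm2 window held a single decamer without a mismatch but no pair. Sequence outside the windows, introns further into a gene included, was not searched, so a pair may lie there. Capitals mark the matched element, its spacer included, or for Mdm2 the decamer.
Ccng1, chr11:40755287-40755536, minus strand: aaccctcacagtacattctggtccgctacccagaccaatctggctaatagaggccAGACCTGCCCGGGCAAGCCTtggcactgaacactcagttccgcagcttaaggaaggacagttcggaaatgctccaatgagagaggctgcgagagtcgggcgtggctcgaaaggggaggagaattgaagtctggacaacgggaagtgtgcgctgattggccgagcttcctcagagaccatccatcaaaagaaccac
Gadd45a, chr6:67037408-67037657, minus strand: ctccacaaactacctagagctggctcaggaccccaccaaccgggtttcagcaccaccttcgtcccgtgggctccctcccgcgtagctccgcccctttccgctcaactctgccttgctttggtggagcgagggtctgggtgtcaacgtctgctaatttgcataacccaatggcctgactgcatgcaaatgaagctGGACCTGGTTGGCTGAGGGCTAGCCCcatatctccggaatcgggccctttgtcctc
Sesn1, chr10:41887189-41887438, plus strand: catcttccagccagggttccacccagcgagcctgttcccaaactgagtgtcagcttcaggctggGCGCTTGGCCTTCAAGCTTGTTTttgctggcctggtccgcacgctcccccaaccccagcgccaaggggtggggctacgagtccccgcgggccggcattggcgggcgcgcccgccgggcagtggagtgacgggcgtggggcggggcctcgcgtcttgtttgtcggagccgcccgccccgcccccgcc
Mdm2, chr10:117710759-117711008, minus strand: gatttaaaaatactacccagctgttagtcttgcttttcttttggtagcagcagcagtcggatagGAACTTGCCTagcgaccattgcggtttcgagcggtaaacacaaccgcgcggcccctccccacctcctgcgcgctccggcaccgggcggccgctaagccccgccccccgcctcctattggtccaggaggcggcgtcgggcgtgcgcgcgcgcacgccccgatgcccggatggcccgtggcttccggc
The element of Ccng1 began 195 bases before the start and had 1 mismatch, that of Gadd45a began 56 bases before it with a spacer of 6 and 2 mismatches, and that of Sesn1 began 186 bases before it with a spacer of 3 and 2 mismatches. The Mdm2 decamer began 186 bases before the start, and a decamer without a mismatch was present in 8.36% of all windows. The windows of Bbc3 (3 starts), Btg2 and Phlda3 and the other start of Sesn1 held no match. These are matches of letters in short windows and say nothing about where p53 was bound.

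Values below are normalized signals of the scanner, scaled so that every array has a median of 25 over its measured probes. They are comparable between arrays for 1 probe, not between probes. The arrays gave a value above the blank spots for 92.2% to 94.1% of probes, the median gene spot was 1.57 to 1.72 times the mean blank spot, and arrays of 1 group correlated at r = 0.995 to 0.998 over 20473 probes. The arrays labelled control 4 h-1 and control 24 h-1 carried another scan setting than the other 6. With 2 arrays a group, their small number limits how precisely any level is known.

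The first question was whether p53 targets moved together after BafA. At 4 h, 0 of the 9 were higher in BafA qNSCs and 1 was lower, Sesn1, at an adjusted p under 0.05 (limma over all 20473 probes tested), where 1.13% of all probes were called higher and 1.09% lower. At 24 h all 9 passed the same test, 7 of them higher (Mdm2, Ccng1, Trp53inp1, Bbc3, Pmaip1, Phlda3 and Btg2) and 2 lower (Gadd45a and Sesn1), against 14.6% of all probes called higher and 12.8% called lower. The median log2 fold change of the 9 was -0.16 at 4 h and 1.24 at 24 h, where the median of all probes was 0.01 and 0.02. In 7 of the 9 genes both BafA arrays of 24 h also lay above all of the other 6 arrays, which held for 19.4% of all probes. The 9 genes thus differed between BafA and control qNSCs at 24 h, but not all in the same direction. They were chosen with earlier results of these data known, so these counts and shares are not an independent test.

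**Figure D1:**
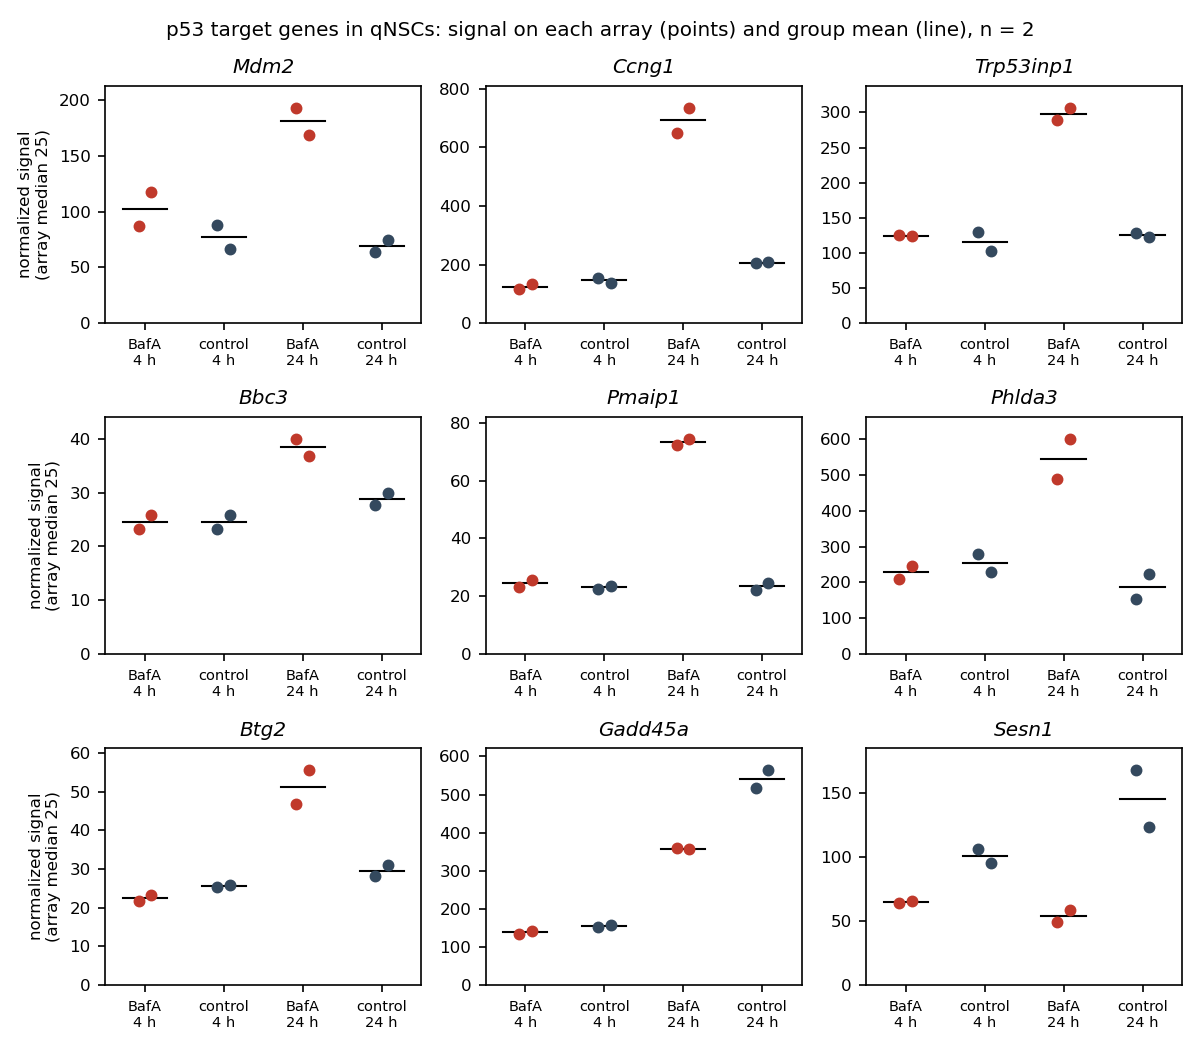
Normalized signal (array median 25, linear axis from 0) of the 9 p53 target genes on every array, in BafA and control qNSCs at 4 h and 24 h. Points are arrays and lines are group means, n = 2. The BafA arrays of 24 h stand above the other 6 in 7 panels, and in the Gadd45a and Sesn1 panels the control arrays of 24 h are highest.

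Genes that feed back on p53 come first. Mdm2 encodes the ubiquitin ligase that removes p53. Its signal at 4 h was 87.4 and 118 on the BafA arrays, against 88.0 and 66.7 on the control arrays. The ranges overlapped, and the log2 fold change of 0.41 (SE 0.16) had an adjusted p of 0.301 in limma. At 24 h it was 194 and 169 with BafA, against 63.5 and 74.9 without. Both BafA arrays were more than 2 times as bright as either control array, and Mdm2 was 2.62-fold higher (log2 1.39, SE 0.16, adjusted p = 2.39e-07 in limma). Mdm2 was the member with the highest log2 fold change at 4 h, and at that time it passed the test in 2 other fits, with 6 arrays of 1 scan setting (0.61, adjusted p = 0.0461) and with the 4 arrays of 4 h alone (0.41, adjusted p = 0.0215).

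Ccng1 encodes cyclin G1, which recruits the phosphatase PP2A to Mdm2. At 4 h its signal was 115 and 132 on the BafA arrays and 155 and 137 on the control arrays, or -0.24 in log2 fold change (limma SE 0.16 and adjusted p 0.759). The BafA arrays lay just below the control arrays. By 24 h the BafA arrays read 650.4 and 737, against 204 and 207 on the control arrays. This 3.37-fold difference (log2 1.75, SE 0.16, adjusted p = 4.27e-09 in limma) was the highest of the 9 genes on this scale, though not between the deposited means, where Ccng1 was 3.59-fold and Pmaip1 5.75-fold higher, and 0.562% of all probes had a larger log2 fold change. Ccng1 is also the gene whose window held the pair of decamers without a spacer. Gadd45a and Sesn1, which had a match with a spacer, were lower at 24 h, and a link between match and change was not tested.

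Trp53inp1 encodes a nuclear stress protein that promotes phosphorylation of p53 and can also bind the autophagy protein LC3. The BafA arrays of 4 h read 125 and 124, and the control arrays 129 and 103. They overlapped (log2 0.11, SE 0.15, adjusted p = 0.957 in limma). At 24 h the signal was 289 and 307 in BafA qNSCs, against 129 and 123 in control qNSCs. The 2 groups were well apart, and Trp53inp1 was 2.37-fold higher (log2 1.24, SE 0.15, adjusted p = 4.99e-07 in limma).

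The 3 genes with a probe that favour cell death rose at 24 h. Bbc3 (PUMA) and Pmaip1 (NOXA) encode BH3-only proteins that bind and block the survival proteins of the Bcl-2 family. Pmaip1 read 23.4 and 25.8 on the BafA arrays of 4 h, against 22.6 and 23.5 on the control arrays, which overlapped and lay near the array median (log2 0.09, SE 0.08, adjusted p = 0.894 in limma). At 24 h it read 72.4 and 74.6 with BafA and 22.2 and 24.5 without. The control arrays had not moved and the BafA arrays were about 3 times as bright, 3.15-fold on this scale (log2 1.65, SE 0.08, adjusted p = 8.9e-14 in limma). The offset of the background correction draws dim probes together, and on the authors' deposited scale, without an offset, the ratio of the means of Pmaip1 at 24 h was 5.75.

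Bbc3 was dim in all groups. Its signal was 23.3 and 25.8 on the BafA arrays of 4 h and 23.3 and 25.9 on the control arrays, which could not be told apart (log2 0.00, SE 0.08, 95% interval -0.17 to 0.17). At 24 h the BafA arrays read 40.1 and 36.8, against 27.7 and 29.9 for the control arrays. This gave the smallest rise of the 7 genes, 1.33-fold (log2 0.42, SE 0.08, adjusted p = 3.33e-04 in limma), or 1.62-fold between the deposited means. Of all probes, 9.76% had a larger log2 fold change, so that Bbc3 stood far less apart from the array as a whole than Pmaip1 did, at 0.65%.

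Phlda3 encodes a protein with little more than a PH domain, which competes with Akt for membrane lipids and so limits survival signalling. Its 4 h signals were 209 and 247 with BafA and 279 and 230.2 without (log2 -0.16, SE 0.19, adjusted p = 0.942 in limma). The ranges overlapped. At 24 h Phlda3 read 490 and 602 on the BafA arrays and 154 and 223 on the control arrays. The control arrays were further apart than for most of the 9 genes, yet the lowest BafA array was above both, and the fitted change was 2.93-fold (log2 1.55, SE 0.19, adjusted p = 4.04e-07 in limma).

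The genes that slow the cell cycle or adjust growth to stress split. Btg2 encodes an antiproliferative protein that acts on mRNA deadenylation and marks neurogenic divisions of neural progenitors. Its BafA arrays of 4 h read 21.8 and 23.3 and its control arrays 25.2 and 25.99. The BafA arrays were slightly lower, without passing the test (log2 -0.18, SE 0.09, adjusted p = 0.494 in limma). At 24 h the BafA arrays read 46.8 and 55.7, against 28.1 and 31.0 on the control arrays, so that the direction was the opposite and the groups did not overlap. Btg2 was 1.73-fold higher (log2 0.79, SE 0.09, adjusted p = 1.2e-07 in limma), and 2.30-fold between the deposited means.

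Gadd45a encodes a small protein of growth arrest that binds PCNA, Cdk1 and the MTK1 kinase. At 4 h it read 135 and 141 on the BafA arrays, against 154 and 158 on the control arrays (log2 -0.17, SE 0.15, adjusted p = 0.892 in limma), the BafA arrays being slightly lower. At 24 h it read 358 and 357 in BafA qNSCs and 518 and 566 in control qNSCs. Both groups of 24 h were far above both groups of 4 h, and among them the BafA arrays were the lower pair. Gadd45a was 1.51-fold lower with BafA at 24 h (log2 -0.60, SE 0.15, adjusted p = 0.00422 in limma).

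Sesn1 encodes sestrin 1, a stress protein that holds back mTORC1, the kinase complex that couples growth to nutrients at the lysosome. It read 64.1 and 65.1 on the BafA arrays of 4 h, against 106 and 94.8 on the control arrays. Both BafA arrays were lower, and Sesn1 was the member called at 4 h (log2 -0.63, SE 0.14, adjusted p = 0.0152 in limma). At 24 h it read 49.2 and 58.2 with BafA and 168 and 123 without. The difference was 2.68-fold (log2 -1.42, SE 0.14, adjusted p = 3.03e-08 in limma), and 99.2% of all probes had a log2 fold change above that of Sesn1. The call at 4 h was lost without any 1 of the 4 arrays of that time (adjusted p between 0.0596 and 0.237), without the variance trend (0.158) and with scan setting as a block (log2 -0.48, adjusted p = 0.0847).

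**Figure D2:**
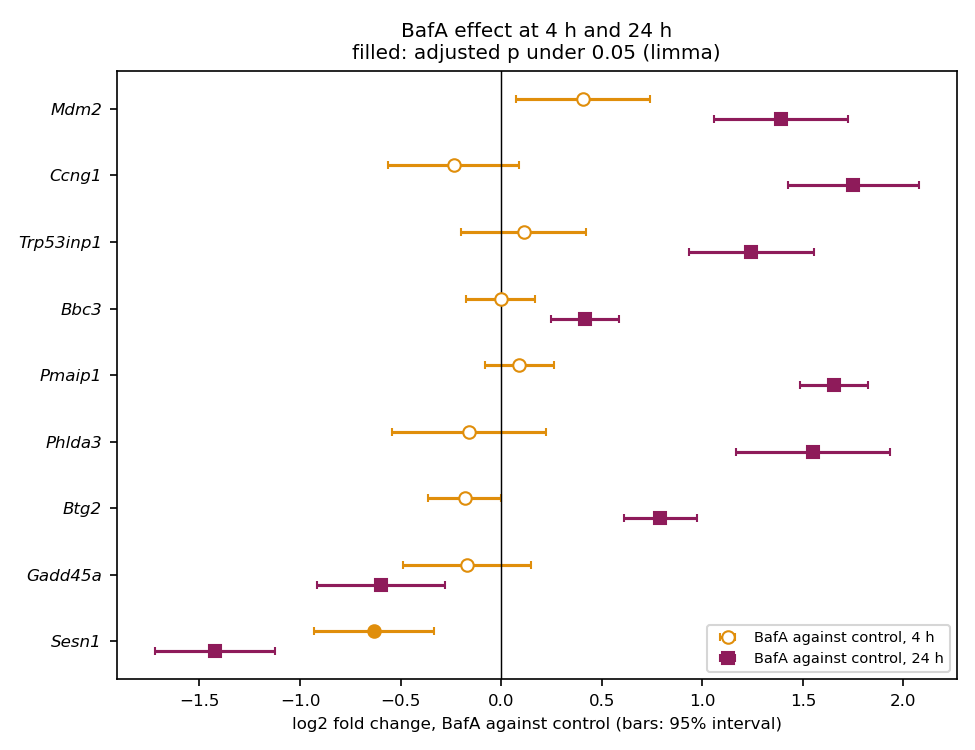
Log2 fold change of BafA against control qNSCs for the 9 p53 target genes at 4 h and 24 h. Points are limma estimates from 8 arrays, bars are 95% intervals, and filled symbols have an adjusted p under 0.05. At 4 h Sesn1 alone is filled, and at 24 h 7 genes lie to the right of 0 and Gadd45a and Sesn1 to the left.

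The calls of 24 h rested on the way the background was treated more than on any array. All 9 were called when any 1 of the 8 arrays was left out, with scan setting as a block and with the 6 arrays of 1 scan setting, where Mdm2 was at 1.27, Pmaip1 at 1.58 and Sesn1 at -1.20. With the signal around each spot subtracted first, all 9 kept their direction but Pmaip1 alone was called (log2 0.96, adjusted p = 0.00696), in a fit that called 130 of 20473 probes higher and 57 lower.

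**Figure D3:**
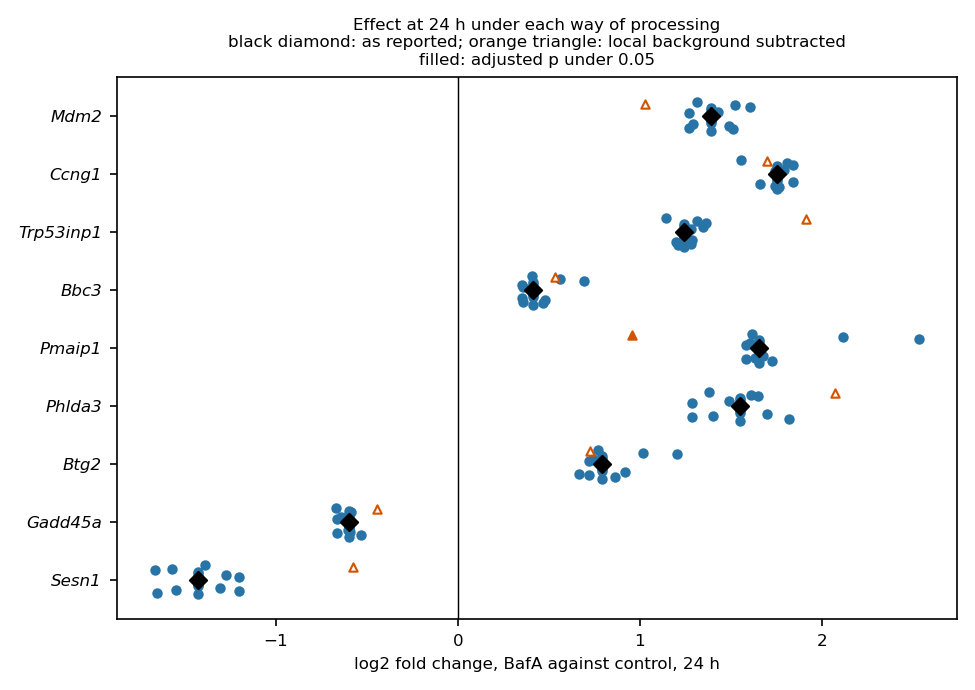
Log2 fold change of BafA against control at 24 h for each gene under every way of processing that gave a limma fit. Diamonds are the reported values, circles other settings, arrays left out included, and triangles the setting with the local background subtracted; filled symbols have an adjusted p under 0.05. No value crosses 0, and 8 of the 9 triangles are open.

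Whether the effect of BafA differed between the times was tested as a difference of the 2 effects. It passed for 8 of the 9 genes, 7 with a higher effect at 24 h and Sesn1 with a lower one, against 14.7% of all probes in either direction. The difference was 1.99 for Ccng1 (SE 0.22, adjusted p = 4.79e-07 in limma), 1.71 for Phlda3 (SE 0.26, adjusted p = 3.91e-05) and 1.56 for Pmaip1 (SE 0.12, adjusted p = 5.87e-10) on the log2 scale. For Gadd45a it was -0.43 (95% interval -0.88 to 0.02, adjusted p = 0.236). The difference of Mdm2 was 0.98 (adjusted p = 0.00328), and 0.67 (adjusted p = 0.0892) with the 6 arrays of 1 scan setting.

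Time in culture after the medium change moved some of the same genes without BafA. In control qNSCs, 4 of the 9 were higher at 24 h than at 4 h and 0 lower (33.0% of all probes were called in either direction). Gadd45a was 3.48-fold higher in control qNSCs at 24 h (log2 1.80, SE 0.15, adjusted p = 2.46e-09 in limma), Ccng1 1.41-fold (adjusted p = 0.016), Sesn1 1.44-fold (adjusted p = 0.00653) and Bbc3 1.17-fold (adjusted p = 0.0354). These last 3 calls were lost with the 6 arrays of 1 scan setting. They were also lost without single control arrays, that of Ccng1 without 4 h-2, 24 h-1 or 24 h-2 (adjusted p of 0.0541 to 0.158), that of Sesn1 without 4 h-2 or 24 h-1 (0.0829 and 0.145) and that of Bbc3 without 4 h-1 or 24 h-2 (0.3 and 0.133). Of 18 other limma fits, Ccng1 was called in 13, Sesn1 in 14 and Bbc3 in 10. In BafA qNSCs, 8 of the 9 were higher at 24 h than at 4 h (37.3% of all probes were called in either direction), led by Ccng1 at 5.61-fold (log2 2.49, SE 0.16, adjusted p = 5.45e-12 in limma). Sesn1 was the exception, at -0.27 (SE 0.14, adjusted p = 0.154).

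These comparisons share arrays, so their values belong side by side rather than as separate evidence. For Gadd45a the log2 difference between 24 h and 4 h was 1.37 in BafA qNSCs and 1.80 in control qNSCs. Mdm2, Pmaip1 and Trp53inp1 had 0.83, 1.58 and 1.26 in BafA qNSCs, against -0.15, 0.02 and 0.13 in control qNSCs. For these 3 genes the value in BafA qNSCs passed the test and that in control qNSCs did not, and for Sesn1 it was the reverse.

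A wider list of 64 p53 target genes, without the 9, held 56 that were tested. At 4 h 3 were higher (5.36%, against 1.13% of all probes) and 0 lower. They were Plk2 (0.86 on the log2 scale, adjusted p = 1.04e-05 in limma), a polo-like kinase of the stress response, Lif (0.33, adjusted p = 0.0013), a cytokine of the IL-6 family, and Plk3 (0.31, adjusted p = 0.0203). At 24 h 23 of the 56 (41.1%) were higher, 7 (12.5%) were lower and 26 did not pass, and the median log2 fold change was 0.18. In 27 of the 56 both BafA arrays of 24 h lay above the other 6 arrays, which held for 19.4% of all probes. The share of higher calls compares with 14.6% of all probes and that of lower calls with 12.8%. This list too was chosen with earlier results of these data known.

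On the offset scale, the largest rises of the wider list at 24 h were in Cdkn1a, Ddit4, Plk2, Slc19a2, Polk and Kitl. Cdkn1a, the cell-cycle inhibitor p21, averaged 902 ± 44.1 in BafA qNSCs and 129 ± 31.2 in control qNSCs (SD, n = 2 each; log2 2.83, adjusted p = 5.09e-12 in limma), a larger change than that of any of the 9. Ddit4, an inhibitor of mTORC1, averaged 639 ± 63.0 with BafA and 145 ± 23.6 without (log2 2.14, adjusted p = 4.91e-10). Plk2 rose further than at 4 h in value (1.47, adjusted p = 4.66e-11), Slc19a2, a thiamine transporter, by 1.37 (adjusted p = 1.41e-10), Polk, a translesion polymerase, by 1.11 (adjusted p = 9.93e-09), and Kitl, the ligand of Kit, by 1.09 (adjusted p = 1.53e-05). Among the lower genes, the tetraspanin Cd82 was at -0.79 (adjusted p = 2.75e-05), the death receptor Fas at -0.75 (adjusted p = 6.00e-04), Cpt1c, a brain carnitine palmitoyltransferase, at -0.74 (adjusted p = 6.49e-04), Triap1, an inhibitor of the apoptosome, at -0.47 (adjusted p = 0.0149), Tnfaip8 at -0.37 (adjusted p = 0.00292) and the matrix protein Thbs1 at -0.30 (adjusted p = 0.00547). The order depends on the scale for dim probes. Between the deposited means, Eda2r (4.02-fold higher), Apaf1 (3.31-fold) and Ckap2 (3.11-fold), chosen after their values were seen, lay above Polk (2.85-fold) and Kitl (2.38-fold), and Cd82 was 5.05-fold and Thbs1 6.48-fold lower, the BafA mean of Thbs1 being 1.25 and so close to the blank level. Other ratios also rest on dim values. The deposited control means of Eda2r, Apaf1 and Ckap2 at 24 h were 6.7, 11.45 and 18.85, and the BafA mean of Cd82 was 5.9, all below the array median of 25.

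**Figure D4:**
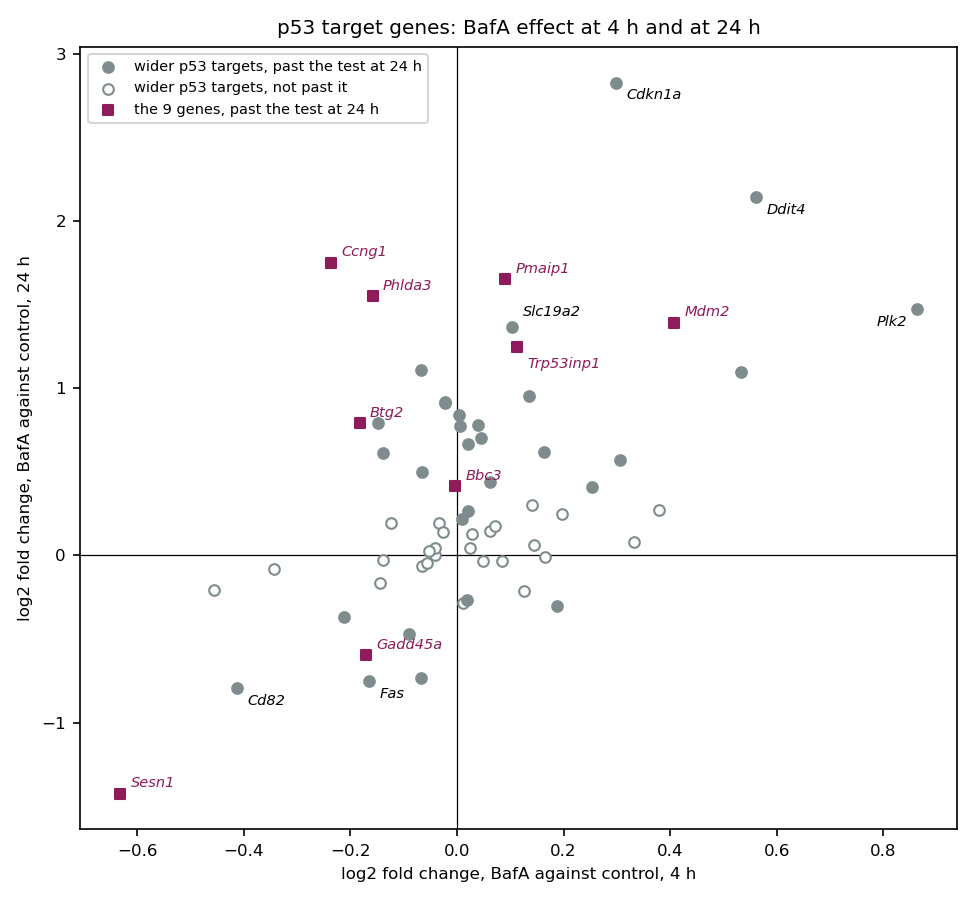
Log2 fold change of BafA against control at 4 h (horizontal) and at 24 h (vertical) for the 9 p53 target genes (squares) and 56 wider p53 target genes (circles). Filled symbols have an adjusted p under 0.05 at 24 h. The 9 squares span -1.42 to 1.75 at 24 h and -0.63 to 0.41 at 4 h, and Cdkn1a is the highest point at 24 h.

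The genes that set the level and activity of p53 were a list of their own. Trp53 had no probe under its symbol and was not analysed here. Of 27 regulators tested, 0 passed at 4 h, where 0 also had an unadjusted p under 0.05 in limma, against 9.9% of all probes. At 24 h 5 were higher (18.5%, against 14.6% of all probes) and 1 lower (3.70%, against 12.8%). Cdkn2a, whose ARF product blocks Mdm2 and whose INK4a product blocks Cdk4, averaged 202 ± 10.4 in BafA qNSCs and 109.8 ± 5.84 in control qNSCs at 24 h (SD, n = 2 each; log2 0.88, adjusted p = 2.67e-05 in limma). Which product the probe reads is not given in the sources used here. Rpl5 and Rpl11, ribosomal proteins that bind Mdm2 when ribosome assembly fails, were at 0.42 each (adjusted p = 0.00873 and 0.0267), Trim24, a ligase of p53, at 0.62 (adjusted p = 0.00188), Usp7, a deubiquitinase of Mdm2 and p53, at 0.26 (adjusted p = 0.0263), and Dyrk2, a p53 kinase in human cells, at -0.25 (adjusted p = 0.00891).

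Relatives of the 9 genes were set beside them, since they share protein families but are not all p53 targets. Of 17 tested, 0 passed at 4 h, where limma gave 4 an unadjusted p under 0.05, against 9.9% of all probes. At 24 h 4 were higher (23.5%, against 14.6% of all probes) and 3 lower (17.6%, against 12.8%). Btg1 was at 1.60 (adjusted p = 3.00e-07 in limma), Phlda1 at 0.80 (adjusted p = 5.24e-04), Ccng2 at 0.74 (adjusted p = 4.94e-04) and the Bcl-2 family member Bok at 0.46 (adjusted p = 1.37e-04). Sesn3 was at -0.62 (adjusted p = 2.77e-04), Trp53inp2 at -0.51 (adjusted p = 0.0213) and Gadd45g at -0.50 (adjusted p = 0.033). The other 10 did not pass, among them Gadd45b (0.31, adjusted p = 0.164), Sesn2 (0.19, adjusted p = 0.395) and Phlda2 (0.01, adjusted p = 0.948), so that within a family some members passed and others did not, and Trp53inp2 and Trp53inp1 went opposite ways.

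Cell-cycle genes that p53 represses through p21 and the DREAM complex were the last list. At 4 h 0 of 26 passed in limma, where 3 had an unadjusted p under 0.05, against 9.9% of all probes. At 24 h 7 were lower (26.9%, against 12.8% of all probes), 1 was higher (3.85%, against 14.6%) and 18 did not pass. From 4 h to 24 h, 8 of the 26 were called higher and 4 lower in control qNSCs (33.0% of all probes in either direction). In BafA qNSCs the same comparison gave 4 higher and 8 lower (37.3% of all probes in either direction). A gene lower with BafA at 24 h therefore need not have fallen with time. Nusap1, a spindle protein, averaged 27.6 ± 0.42 with BafA and 67.1 ± 7.52 without (SD, n = 2 each; log2 -1.28, adjusted p = 3.67e-10 in limma). Cdc20 was at -0.65 (adjusted p = 1.38e-06), Cdk1 at -0.64 (adjusted p = 7.64e-05), Ccna2 at -0.47 (adjusted p = 4.00e-07), Aurka at -0.37 (adjusted p = 1.66e-04) and Ccnb2 at -0.21 (adjusted p = 0.00443), and the gene that rose was E2f1 (0.33, adjusted p = 1.74e-04). Several of these probes lay near or below the array median, so that their changes are drawn together on this scale.

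Cell type markers moved with the same arrays at 24 h, when 14.6% of all probes were called higher in BafA qNSCs and 12.8% lower. Of 6 astrocyte markers 5 were lower in BafA qNSCs, and their summed signal was 5334 to 6053 on the BafA arrays, against 13043 to 15349 on the control arrays. Of 9 neural stem cell markers 3 were higher and 3 lower, and the summed signal was 19721 to 20359 with BafA and 19874 to 20146 without. Of 6 neuronal markers 4 were lower and 1 higher, with sums of 143 to 147 on the BafA arrays, against 335 to 382 on the control arrays. Of 6 oligodendrocyte lineage markers 1 was higher and 1 lower, with sums of 2376 to 2434 with BafA and 1636 to 1913 without. The log2 fold change was below 0 for 4 of these 6 (median -0.09) and reached 1.66 at most. Bright probes weigh most in such sums. Most markers of other cells lay below the array median at 24 h in BafA qNSCs, 5 of 7 for microglia, 5 of 6 for endothelial and mural cells and 4 of 4 for fibroblasts. Their sums were 135 to 143 with BafA and 131 to 142 without for microglia, 95.7 to 99.7 with BafA and 99.4 to 106 without for endothelial and mural cells, and 67.4 to 69.4 with BafA and 80.8 to 88.2 without for fibroblasts. In such samples a change in the share of a cell type and a change in RNA per cell cannot be told apart, and the part of these markers in the p53 target values was not tested.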

How the data were processed

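RNA of BafA and control qNSCs was labelled with Cy5 and hybridised to 8 single-colour 3D-Gene oligonucleotide arrays. The authors deposited each array's scanner intensity, not normalized, and a table of signal values. The values show these to be close to the spot minus the mean blank, scaled to an array median of 25. The scanner intensities were background-corrected with normexp (offset 50, no local background), control spots were dropped, arrays were brought to a common median of 25, and log2 was taken. Arrays were assigned to groups by their titles. Of 23473 gene probes, the 20473 with a deposited value on all 8 arrays were fitted in limma 3.58.1 (R 4.3.3) with 1 coefficient per group over all arrays and eBayes with a variance trend. The spread shared between probes had 19.3 degrees of freedom, against 4 from the probe itself, so small p-values lean on the shared part. Adjusted p-values are Benjamini-Hochberg over all of them, at 0.05. A permutation test of 2 arrays against 2 cannot go below an exact two-sided p of 0.333, so none is given. On simulated log2 values with normal noise of the fitted spread, 88.1% of 1.5-fold and 98.5% of 2-fold changes were recovered at 24 h, with 15 unchanged probes called. The changes were added after the offset and scaling, and to far fewer probes than were called in the data. These shares therefore leave out how the offset draws dim probes together, and recovery in the data may be lower.

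Symbols came from the platform annotation (16631 probes with 1 symbol, 0 with several, 6842 with none), and 3947 older symbols were updated through RefSeq. The 9 genes and every list were chosen with earlier results of these data known. All 9 genes are described by every probe they have. From each other list, up to 6 genes per direction with the largest change among those past the test are named at each time; where probes of a gene differ, that of the highest mean signal was used. Alternatives were quantile normalization, local background, an offset of 16, the deposited values, no trend, a filter on dim probes, scan setting and array number as blocks, subsets of arrays, the methods' t-test and the methods' 2-fold rule. Promoters were searched with Python 3.11.15.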

Additional observations from a re-analysis of the deposited data

Results flagged for a closer look

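The effect of BafA differed between 4 h and 24 h for 8 of the 9 p53 target genes, by the test of the difference itself (limma, Benjamini-Hochberg over 20473 probes). The effect at 24 h minus that at 4 h, on the log2 scale, was 1.99 for Ccng1 (adjusted p = 4.79e-07), 1.71 for Phlda3 (3.91e-05), 1.56 for Pmaip1 (5.87e-10), 1.13 for Trp53inp1 (4.48e-04), 0.98 for Mdm2 (0.00328), 0.97 for Btg2 (3.20e-06), 0.42 for Bbc3 (0.014) and -0.79 for Sesn1 (0.00806). Both groups of 4 h and both of 24 h enter each value, with 2 arrays a group. The differences of Bbc3, Sesn1 and Mdm2 were the least stable. Of 18 other limma fits, that of Bbc3 was called in 12, that of Sesn1 in 14 and that of Mdm2 in 15. The fits named next are not all of those that lost a call. That of Bbc3 was lost on the deposited values (adjusted p = 0.0542) and without BafA 4 h-1, control 4 h-2 or BafA 24 h-1 (0.0811 to 0.112), that of Sesn1 without control 4 h-2 (0.0521) or BafA 24 h-1 (0.0637), and that of Mdm2 with 6 arrays of 1 scan setting (0.0892).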

How the results depend on the processing

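At 24 h, all 9 genes kept their direction in every alternative run and stayed past the test in all limma fits but that with the local background subtracted, where 1 was called. At 4 h the 1 call became 0 with the local background, without the trend, with scan setting as a block, in the methods' t-test after Benjamini-Hochberg and by the 2-fold rule, became 2 with 6 arrays, with 4 arrays and in the unadjusted methods' t-test, and ranged from 0 (without any 1 of the 4 h arrays) to 1 when 1 array was left out. The methods' t-test after Benjamini-Hochberg called 0 in every comparison of the 9 genes and of the wider list. With the local background, the 8 differences between times became 0, the 4 calls of control 24 h against 4 h 0, the 8 of BafA 24 h against 4 h 1, the 3 wider targets of 4 h 0 and the 30 of 24 h 4. The 4 control calls became 2 with 6 arrays and in the unadjusted t-test and 1 by the 2-fold rule, and with 1 array left out ranged from 2 (without control 4 h-2) to 4, while the differences between times ranged from 6 to 8. The 3 wider calls of 4 h became 1 without the trend or with the dim filter, 8 with 4 arrays and 5 in the unadjusted t-test, and ranged from 2 (without control 4 h-1) to 6 (without control 24 h-1 or 24 h-2) with 1 array left out, and the 30 of 24 h became 18 by the 2-fold rule and ranged from 27 to 33. Why the local background lowers the counts was not tested.

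Some values near 0 changed sign. In control 24 h against 4 h, Mdm2 was 0.010 with local background, 0.17 with 6 arrays and -0.35 to 0.048 with 1 array left out, Bbc3 -0.15 and Btg2 -0.016 with local background, Pmaip1 -0.051 to 0.089 with 1 array left out, and Trp53inp1 -0.0050 with quantile normalization, -0.89 with local background and -0.039 to 0.29 with 1 array left out. In BafA against control at 4 h, Ccng1 was 0.32 with local background, and with 1 array left out Bbc3 was -0.079 to 0.072 and Trp53inp1 -0.053 to 0.28. Sesn1 in BafA 24 h against 4 h was 0.15 with local background.

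Arrays that share a number were not paired by any source, and their deviations from the group means correlated at -0.22 between BafA and control at 4 h and 0.05 at 24 h, at 0.29 between the control groups of 24 h and 4 h, and at 0.32 between the BafA groups of 24 h and 4 h. With the array number as a replicate block, 1 of the 9 was called at 4 h, 9 at 24 h and 8 in the difference, and the control calls became 5. With the numbers crossed, an alternative chosen after seeing the data, the counts were 1, 9 and 8, and 3 for the control calls.

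Signal over background limits the dim probes Bbc3, Pmaip1 and Btg2, whose fold changes are larger on the deposited scale.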
